A study of Anethum foeniculum with 6 samples.

Results

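The 143 transcripts described here were moderately expressed in fennel leaves and stood higher in every library from plants given red light than in any library from control plants. They were taken from 127290 assembled genes. The red group comprised 3 leaf libraries from plants under ambient sunlight with supplemental red light from light-emitting diodes, and the control group 3 leaf libraries from plants under ambient sunlight alone. All plants were leafy fennel, Foeniculum vulgare, an aromatic herb of the carrot family grown in hydroponics. The labels call the libraries biological replicates and give neither the plant age nor the number of plants in a library, so the p-values measure the spread between these libraries.

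Levels are given in CPM, the count of a transcript scaled to a library total of 1000000. A transcript belonged to the set if its mean over the 6 libraries was at least 5 and under 50 CPM, if it had at least 1 count in every library, if its lowest red value exceeded its highest control value, and if its mean red level was at least 4 times its mean control level. The measured difference between the light treatments therefore chose the members, and their height over control is a description with no test. Of 11151 assembled genes with a mean of 5 to 50 CPM, 10865 had a count in every library and form the background below.

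Plants sense red light chiefly through phytochromes, photoreceptors that red light switches into their active form. Active phytochrome moves into the nucleus and removes or restrains the phytochrome-interacting factors, which in darkness or shade repress light-regulated genes, and it lets the transcription factor HY5 accumulate. Red light is also absorbed by chlorophyll and drives photosynthesis. Fennel leaves owe their scent to phenylpropanoids such as anethole and to terpenes held in secretory ducts. The table identifies its rows only by names from a de novo assembly, which joins reads into transcripts without a genome, and pairs none of them with a gene name. The members could therefore not be placed in any of these pathways, the leaf label could not be checked against marker genes, and no sequence is shown.

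Total counts ranged from 18839959 to 22673552 in red libraries and from 18040162 to 22992137 in control libraries, so that 3 counts, taken as the limit of detection, corresponded to 0.130 to 0.166 CPM. This limit covers counting error only. Red replicate 3 stood apart from the other red libraries, and its label could not be checked because no row is named. Over the 10865 background rows, its log2 CPM values had a mean Pearson's r of 0.52 with the other red libraries and 0.72 with the controls. For red replicates 1 and 2 the mean r was 0.59 and 0.64 with the other red libraries, and 0.47 and 0.49 with the controls. These correlations are across rows that share library depth, and are descriptions. The share of all counts that fell in rows of 5 to 50 CPM was 18.4% ± 0.332 in red libraries and 19.5% ± 0.552 in control libraries (SD, n = 3 each). The groups did not overlap in this share (exact permutation p = 0.1, two-sided, the smallest that 3 against 3 libraries allow).

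Among rows without overlap between the groups, those at least 4-fold higher in red outnumbered those at least 4-fold lower. At any fold, rows without overlap were more often lower in red under library totals and TMM, but not under DESeq2's size factors. The rule was met by 143 rows, 1.32% of the background, and its mirror image, with every red library below every control and a mean at least 4-fold lower in red, by 58 rows (0.534%). Without a limit on the fold, all red libraries lay above all controls in 725 rows (6.67%) and below them in 1778 rows (16.4%). The background itself was shifted on this scale, with a median ratio of mean red to mean control CPM of 0.914. With the trimmed mean of M-values (TMM) as the scaling, the median ratio was 0.989, and the split was 1050 rows above and 1144 below. With DESeq2's size factors the order turned, with 1205 above and 1027 below. The excess of raised over lowered rows at 4-fold or more was present under each of these scalings, with 169 raised and 49 lowered rows under TMM and 183 and 43 under DESeq2's size factors. The ratio is of arithmetic means, which a single high library can lift. Lowered rows were not counted with a limit on mean log2 CPM. Of the 143 members, 142 also met the rule under TMM.

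**Figure D1:**
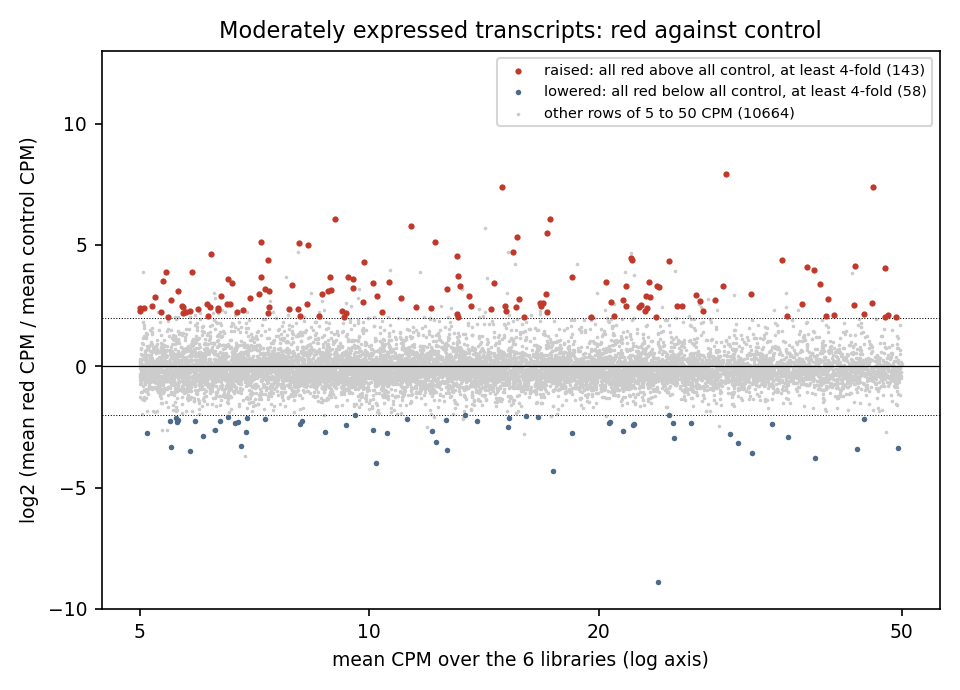
Each point is 1 of the 10865 background rows, placed by its mean CPM over the 6 libraries (log axis) and by the log2 ratio of mean red to mean control CPM. The 143 raised members lie above the upper dotted line (4-fold) over the whole CPM range, and the 58 lowered rows lie below the lower one.

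In its group means, the typical member stood near 23 CPM in red leaves and below 3 CPM in control leaves. The median over members was 21.3, 26.8 and 9.13 CPM in red replicates 1, 2 and 3. Mean red levels ranged from 8.29 to 91.1 CPM (median 22.8) and mean control levels from 0.176 to 19.4 CPM (median 2.53). The ratio of the group means had a median of 6.60, with lower and upper quartiles of 5.08 and 11.1. In all, 55 members reached 8-fold, 24 reached 16-fold, 12 reached 32-fold and 3 passed 100-fold. The gap between the groups was narrower than these means. The lowest red value was a median of 1.85 times the highest control value, at least 2 times in 62 members, at least 4 times in 15, and under 1.5 times in 43. By abundance, the median ratio was 5.94 for the 61 members with a mean of 5 to 10 CPM, 7.20 for the 36 members of 10 to 20 CPM, and 6.57 for the 46 members of 20 to 50 CPM. These made up 1.60%, 1.00% and 1.33% of the background rows in the same ranges.

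**Figure D2:**
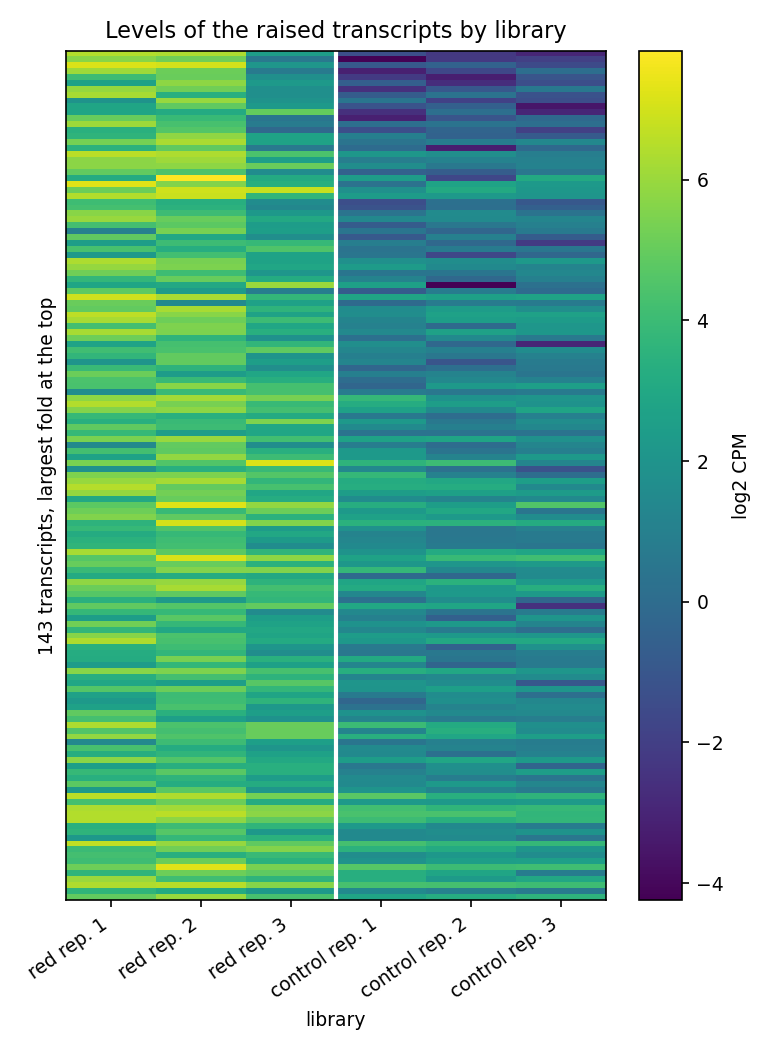
Each row is 1 of the 143 members, ordered from the largest ratio of group means at the top to the smallest at the bottom, and each column is a library, with the 3 red libraries left of the white line and the 3 controls right of it. Colour gives log2 CPM. Red replicates 1 and 2 are bright over most of the plot, red replicate 3 is intermediate, and the darkest control cells are at the top.

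TRINITY_DN4813_c0_g1 had the widest gap between the groups and also the largest ratio of group means. It had 87.4, 82.7 and 5.73 CPM in red replicates 1, 2 and 3, against 0.388, 0.211 and 0.130 CPM in control replicates 1, 2 and 3. Red replicates 1 and 2 were nearly alike, red replicate 3 was far lower, and it still stood 14.8 times above the highest control. The control values rested on 7, 4 and 3 counts, the last of these at the limit of detection. From the pooled counts, 3718 in red and 14 in control libraries, the ratio per library total was 260, with a 95% interval of 155 to 477 (Clopper-Pearson, counting error only). The fitted log2 fold change was 8.07 with a standard error of 1.26, and it did not pass edgeR's quasi-likelihood test (adjusted p = 0.27, and 0.017 to 0.67 over the alternative edgeR fits other than the one without a filter on low counts). DESeq2 gave an adjusted p of 3.2e-12, limma-voom 0.68 and edgeR without that filter 0.00043. The transcript was picked for its gap among members chosen on this same contrast. Its interval and p-values are therefore descriptions and no evidence that it rose.

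TRINITY_DN17446_c0_g1 had the highest mean level in red leaves. It stood at 142, 127 and 4.35 CPM in red replicates 1 to 3, against 0.554, 0.739 and 0.348 CPM in control replicates 1 to 3. The order of the red libraries matched that of the first transcript, and the lowest of them was 5.89 times the highest control. The pooled counts were 5802 in red and 32 in control libraries, a ratio of 178 per library total (95% Clopper-Pearson interval 126 to 260, counting error only). Its fitted log2 fold change was 7.54 with a standard error of 1.40 (edgeR quasi-likelihood adjusted p = 0.27, and 0.017 to 0.84 over the alternative edgeR fits other than the one without a filter on low counts). For TRINITY_DN17446_c0_g1, DESeq2 gave an adjusted p of 8.7e-10, limma-voom 0.67 and edgeR without that filter 0.0017. The same edgeR test without red replicate 3 gave both transcripts an adjusted p of 0.017, with log2 fold changes of 8.60 for TRINITY_DN4813_c0_g1 and 8.10 for TRINITY_DN17446_c0_g1. Both were picked from members chosen on this same contrast, so these values too are descriptions and no evidence of a rise.

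**Figure D3:**
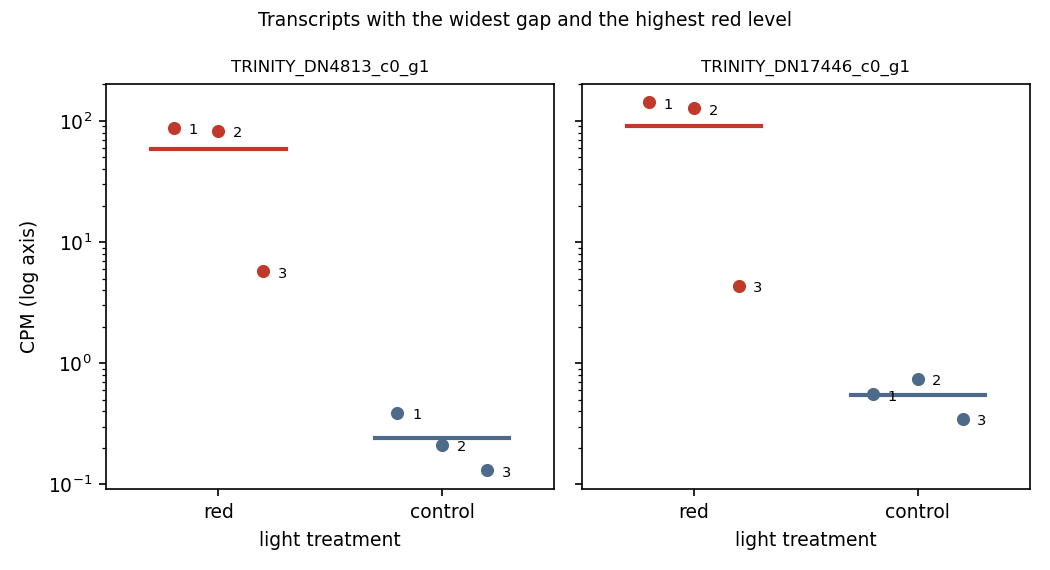
CPM on a log axis for TRINITY_DN4813_c0_g1 (left) and TRINITY_DN17446_c0_g1 (right). Points are libraries with their replicate numbers, red left of control, and bars are group means. In both panels red replicate 3 lies at 5.73 and 4.35 CPM, between the other red libraries and the controls.

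The 2 transcripts above were extreme, and the rest of the members are described without identifiers, since none has a name. The member at the median ratio had 44.6, 43.7 and 24.0 CPM in red replicates 1 to 3, against 13.9, 2.06 and 1.04 CPM in control replicates 1 to 3. Its red libraries were within 2-fold of each other, whereas its controls were spread widely and control replicate 1 came closest to red. The most even member over the red libraries had 8.91, 9.29 and 8.17 CPM in red, against 0.942, 0.897 and 2.87 CPM in control. The least even had 9.13, 228 and 8.81 CPM in red, against 5.43, 0.317 and 8.48 CPM in control, so that its mean rested on red replicate 2 alone. The member with the fewest control counts had 1151, 724 and 29 counts in red replicates 1 to 3, against 1, 4 and 6 counts in control replicates 1 to 3. Of all members, 12 had 3 counts or fewer in at least 1 control library, and their median ratio of group means was 39.9.

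At the 4-fold limit, the last row inside the set had red values of 30.7, 63.6 and 20.1 CPM and control values of 7.10, 9.34 and 12.0 CPM (ratio 4.03). The first row outside had red values of 63.6, 17.7 and 17.0 CPM and control values of 5.49, 8.18 and 11.0 CPM (ratio 3.98). At the limit on overlap, the row inside had 6.53 CPM in its lowest red library, against 6.44 CPM in its highest control. The row outside had 10.2 CPM in its lowest red library, against 10.3 CPM in its highest control, and its ratio of group means was 6.91. The highest mean CPM of a member was 49.2, and the nearest rows beyond the CPM limits that met the other conditions had 4.96 and 51.9 CPM. Of 222 background rows (2.04%) with a mean at least 4-fold higher in red, 79 were left out because the groups overlapped, and red replicate 3 was the lowest red library in 67 of these 79.

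The members' rise was carried mainly by red replicates 1 and 2. Together the members took 0.494%, 0.537% and 0.228% of all counts in red replicates 1, 2 and 3, against 0.0650%, 0.0563% and 0.0517% in control replicates 1, 2 and 3. The highest of the red libraries was red replicate 2 in 70 members, red replicate 1 in 59 and red replicate 3 in 14. The lowest was red replicate 3 in 98 members (68.5%), red replicate 1 in 32 and red replicate 2 in 13. Over all background rows, red replicate 3 was the lowest red library in 35.6% and the highest in 40.0%. Over the 725 background rows with all red libraries above all controls, whatever the fold, it was the lowest in 61.0% and the highest in 16.1%. The rule did not use the order within the red group, but it set how low the lowest red library could fall. The median log2 ratio of a member's level to its own mean control level was 2.87 in red replicate 1, 3.05 in red replicate 2 and 1.70 in red replicate 3. A level of 4 times the control mean was reached by 109 members in red replicate 1, 123 in red replicate 2 and 57 in red replicate 3, and by 31 in all 3 libraries.

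**Figure D4:**
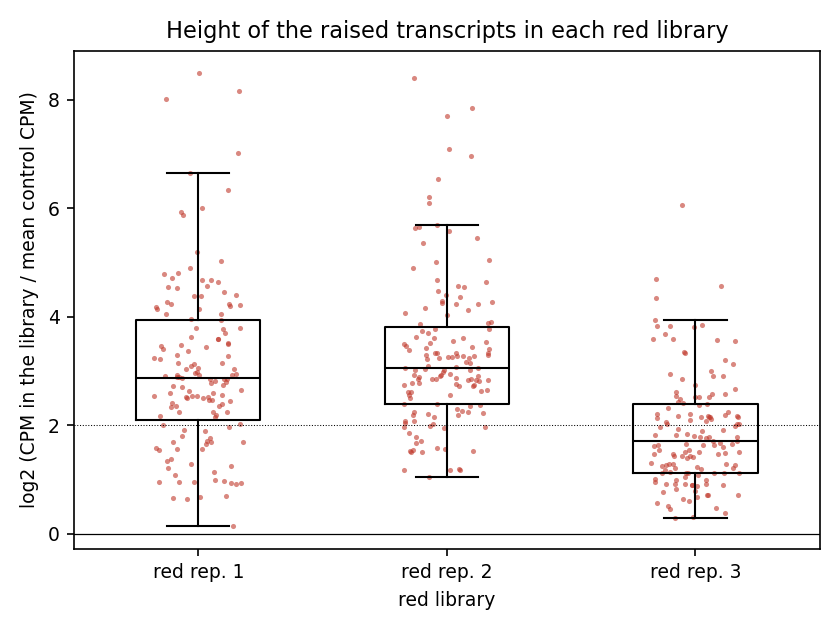
For each red library, the log2 ratio of its CPM to the mean control CPM of the same member (points, n = 143). Boxes give the quartiles and the median, whiskers reach to the last point within 1.5 box heights, the solid line is the control mean and the dotted line 4 times that mean. The median is 1.70 in red replicate 3, against 2.87 and 3.05 in red replicates 1 and 2.

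The members were sorted into profiles by the order of the red libraries, so every row falls into a profile by construction. In 52 members the level was highest in red replicate 1 and lowest in red replicate 3, with median log2 ratios to the control mean of 3.74, 2.85 and 1.29 in red replicates 1, 2 and 3. Their mean levels had medians of 30.1 CPM in red and 3.17 CPM in control leaves. In 46 members red replicate 2 came first and red replicate 3 last (2.66, 3.31 and 1.51). In 24 members red replicate 2 was again highest but red replicate 1 was lowest (1.23, 3.50 and 2.15). Only 14 members were highest in red replicate 3, of which 1 had 41.9, 23.2 and 144 CPM in red replicates 1 to 3, against 12.3, 16.2 and 2.35 CPM in control replicates 1 to 3. A further 7 were highest in red replicate 1 and lowest in red replicate 2. In the order given, these profiles held 36.4%, 32.2%, 16.8%, 9.79% and 4.90% of the members. Over the 725 background rows with all red libraries above all controls, the shares were 30.5%, 30.5%, 12.3%, 16.1% and 10.6%. The ranking of the medians within a profile follows from the sorting.

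Red libraries varied more than controls in most members, as they did in the background. The coefficient of variation over the red libraries had a median of 72.0%, against 41.0% over the control libraries. In the background the medians were 29.1% in red and 19.2% in control. The 58 lowered rows of the mirror rule had medians of 70.3% in red and 45.2% in control, close to those of the members. For the 62 rows of 50 CPM or more that met the other conditions, they were 57.0% and 34.5%. The highest red value was within 2-fold of the lowest in 17 members (11.9%), against 60.2% of the background rows, and the control values in 54 members (37.8%), against 79.6% of the background rows. The spread, as highest over lowest value, was wider in red than in control in 106 members (74.1%) and in 68.4% of the background rows. It was also wider in red in 74.1% of the lowered rows and in 77.4% of the rows of 50 CPM or more. A wide red spread was thus not particular to the members. In 100 members more than 50% of the summed red CPM came from a single library, which was red replicate 1 in 46, red replicate 2 in 47 and red replicate 3 in 7. The same count was not made in other rows. A limit on the ratio of arithmetic means can let in rows with a single high red library, so the count is a description. The 17 members with even red libraries had ratios of group means from 4.04 to 20.4 (median 5.42) and mean red levels from 8.77 to 77.9 CPM.

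Most rows that the rule chose in 4 libraries were also higher in red in the libraries left out, but these rows were only in part the members. The rule was applied to 4 libraries, leaving out 1 red and 1 control, and the rows so chosen were read in the libraries left out, in all 9 combinations. With red replicate 2 left out, 138 to 163 rows were chosen, depending on the control left out, and 90.6% to 92.8% of them were higher in red replicate 2 than in the left-out control. With red replicate 1 left out, the share was 79.0% to 87.9% of 166 to 210 rows. With red replicate 3 left out, it was 60.2% to 67.1% of 331 to 359 rows. Over all rows of the same CPM range, 34.0% to 43.6% were higher in the left-out red library. Members made up 92 to 107 of the rows chosen without red replicate 1 and 93 to 99 without red replicate 2. Without red replicate 3 they made up 118 to 124. A member is by definition higher in every red library than in every control. The shares therefore describe the rule and do not test the members as a set. The combinations share libraries with each other and the rows are not replicates, so these shares carry no p-value.

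The size of the difference depended on the red library left out. The median log2 difference between the left-out libraries was 2.07 to 2.76 for red replicate 2, 1.34 to 2.24 for red replicate 1 and 0.49 to 0.68 for red replicate 3, with values under the limit of detection set to it. In the libraries that chose these rows, the median was 2.55 to 2.83. At least a 4-fold higher level was found for 50.9% to 70.3% of the rows with red replicate 2 left out, 38.1% to 52.6% with red replicate 1 and 14.2% to 18.7% with red replicate 3, against 1.48% to 4.49% of all rows of the range. Rows chosen by the mirror rule were lower in the left-out red library in 59.5% to 83.0%, against 56.2% to 65.9% of all rows of the range. With red replicate 3 and control replicate 2 left out, the share of 64.7% was below that of all rows, 65.9%.

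**Figure D5:**
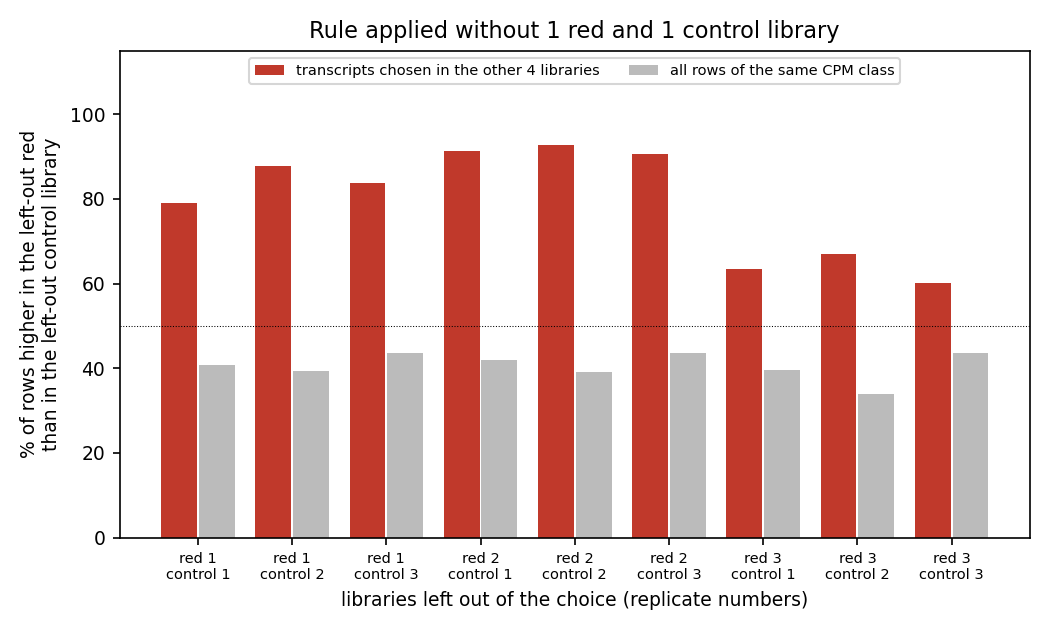
Share of rows that were higher in the left-out red library than in the left-out control library, for the rows chosen by the rule in the other 4 libraries and for all rows of the same CPM class. Bars start at 0, and the dotted line marks 50%. The share for chosen rows is 79.0% to 92.8% where red replicate 1 or 2 was left out and 60.2% to 67.1% where red replicate 3 was.

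The rows that met the rule depended on the libraries used. Applied without red replicate 3, the rule found 288 rows, of which 123 were among the 143 members. Without red replicate 1 it found 138 rows (100 shared), and without red replicate 2 it found 112 (86 shared). Without 1 control library it found 169 to 198 rows, of which 122 to 129 were shared. In 284 background rows red replicates 1 and 2 alone met the conditions on overlap and fold. Red replicate 3 also lay above all controls in 169 of these and below all of them in 39.

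No member passed edgeR's quasi-likelihood test with a filter on low counts, whereas DESeq2 and edgeR without the filter called 129 and 71 of them. The filtered edgeR test, run on the 36013 genes that passed, called 0 genes (0% of those tested) at an adjusted p under 0.05, and the members' adjusted p ranged from 0.18 to 0.58. All 143 members were among these genes. At an unadjusted p under 0.05, 142 members were listed as higher, where 5.04% of all tested genes were (1815 genes, with 1357 listed as lower). The 129 members called by DESeq2 on the same genes were higher at its adjusted p under 0.05, where it called 2.64% of all tested genes higher. For some members DESeq2 gave no adjusted p, among them the least even over the red libraries, so not every uncalled member failed its test. Without the filter, where edgeR tested 122886 genes, it called 71 members higher and 0.174% of all genes tested. With the filter but without red replicate 3, it called 13 members higher and 0.0495% of all genes tested. Limma-voom called 0 genes and listed 113 members as higher at an unadjusted p under 0.05, where 4.76% of all tested genes were. The rule chose the members on this same contrast, so none of these counts bears on whether they rose. The members' median edgeR log2 fold change was 2.87, where the median over all tested genes was 0.00. In bulk leaf RNA, a change in the number of cells of a type and a change in RNA per cell cannot be told apart.

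Most members came from separate assembled clusters, the groups of rows that the assembler built from connected sequence. The 143 members lay in 139 clusters. The 10865 background rows lay in 8955 clusters, so a small set of rows would tend to lie in separate clusters, and the count of 139 is a description. Of the members, 56 (39.2%) were the only row of their cluster, as were 43.1% of the background rows. A pair of members from the same cluster occurred 4 times. In 1 pair, of the same subcluster, red replicate 1 was lowest in both rows, with 15.1, 48.2 and 47.3 CPM in red replicates 1 to 3, against 14.0, 2.64 and 3.04 CPM in control replicates 1 to 3, for the first row. The second row of that pair had 10.4, 15.3 and 45.8 CPM in red, against 4.93, 1.53 and 3.18 CPM in control. In 2 of the other pairs both rows were highest in red replicate 1 and lowest in red replicate 3, with ratios of group means of 11.0 and 14.6 in one pair and 67.3 and 9.92 in the other. In the remaining pair both rows were highest in red replicate 2, but the lowest was red replicate 3 in a row with a ratio of 55.0 and red replicate 1 in a row with a ratio of 4.06.

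Rows from the members' clusters that were not members themselves numbered 111, counting those with a count in every library that averaged 1 CPM or more. Of these, 61 (55.0%) had a higher mean in red, 28 (25.2%) were at least 2-fold higher and 6 (5.41%) at least 2-fold lower. For 2441 rows from clusters of the other background rows, 43.1% had a higher mean in red, 10.5% were at least 2-fold higher and 9.95% at least 2-fold lower. The rows in these counts may differ in abundance. Rows of a cluster may share reads, and rows that met the rule were removed from both counts, so the shares are descriptions.

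More abundant transcripts were selected in the same way for comparison. Among 2912 rows that averaged 50 CPM or more with a count in every library, 62 met the other conditions (2.13%), with a median ratio of group means of 7.10, against 6.60 for the 143 moderately expressed members. Red replicate 3 was the lowest red library in 37 of the 62 and the highest in 1. Of the 58 lowered rows of the 5 to 50 CPM range, red replicate 3 was the highest red library, and thus the closest to the controls, in 34. No difference between these sets was tested.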

How the data were processed

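Leaf RNA was sequenced from 3 red and 3 control libraries. The authors deposited 1 table of whole-number counts with 127290 rows, and per the file headers its columns are named for the libraries in the labels. The row names follow the Trinity assembler. The sources used here name no aligner, counting program or filter. Columns of no sample numbered 0.

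CPM was computed from library totals. The fit was edgeR 4.0.16 (R 4.3.3) with TMM, filterByExpr and the light treatment as the only term, two-sided, Benjamini-Hochberg adjusted over all tested rows. Standard errors came from the F statistic. DESeq2 1.42.0 and limma 3.58.1 (voom) were alternatives. Scripts were tested on simulated data, where the condition for passing was set at a fixed spread and not at that of these libraries. Members and tests were chosen with earlier results of these data known. The identifiers printed are the members with the widest gap and the highest red level. Others are described by rank, or as a pair from the same cluster. Those pairs, the profiles over red libraries and the cluster counts were chosen after their values were seen. Pathway and marker lists could not be applied. Replicate numbers were not treated as pairs.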

Additional observations from a re-analysis of the deposited data

How the results depend on the processing

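The number of members, 143, was 380 with a 2-fold limit and 55 with an 8-fold limit, both by construction, and 112 to 288 with 1 library left out (288 without red replicate 3). It stayed within 1.5 times under TMM (169), DESeq2's size factors (183), no minimum count (169), at least 10 counts in every library (121) and a 4-fold limit on mean log2 CPM (123). EdgeR called 0 genes in the fit as reported, and 0 with DESeq2's size factors, library totals alone or a mean CPM of at least 5, as did limma-voom. EdgeR called 254 without a filter on low counts and 0 to 43 with 1 library left out (43 without red replicate 3), and DESeq2 called 1636. The cause was not tested. Raised and lowered genes together, the calls were 0.207% of the genes tested without the filter, 0.0818% without red replicate 3 and 4.54% with DESeq2. Of the members, 71, 13 and 129 were among the calls in these 3 fits. The rule chose the members on this same contrast, so these counts are descriptions. Library totals alone moved the median log2 fold change of all tested genes to -0.11. The median over members was 2.87 and ranged from 2.70 to 3.12 over the alternatives.

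In their deviations from the group means over the background rows, same-numbered libraries had correlations of -0.20, -0.18 and -0.14. Red and control libraries of unlike number had 0.04 to 0.11, so same-numbered libraries were not more alike. The labels do not say whether a number marks a shared tray or day. With a replicate block edgeR called 0 genes, and the members' median was 2.70. The choice without 1 red and 1 control library, repeated with TMM after seeing the data, gave 60.9% to 93.3% of rows higher in the left-out red library, against 43.6% to 50.4% of all rows. Depth limits the 12 members with 3 or fewer counts in a control library.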
